A study of Mus musculus with 4 samples.

Results

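The chemokine ligand genes Ccl1, Xcl1, Ccl3, Ccl4, Ccl5, Ccl17, Ccl22, Cxcl10 and Cxcl16 were followed in CD4+ T cells cultured under conditions that favour T follicular helper (Tfh) differentiation. They were 9 of the 54752 genes listed in the count files. They were chosen by the measured difference between genotypes, because Ccl1 and Xcl1 had the highest ones of the 9. That difference is therefore given below as a description, without a test. Chemokines are small secreted proteins that guide the movement of leukocytes by binding receptors coupled to G proteins, and each receptor is carried by its own set of cells. Activated T cells make several of them and thereby attract dendritic cells, macrophages and other T cells, while others of the family are made mainly by myeloid cells or under interferon. MEK1 and MEK2, encoded by Map2k1 and Map2k2, are the kinases that activate ERK downstream of the T-cell receptor.

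Naïve CD4+ T cells for the cultures came from the spleen of wild-type littermates (WT) or of Mek1/2-tKO mice, in which a Cre transgene driven by CD4 regulatory sequences acts on floxed Map2k1 and floxed Map2k2. Both genotypes were stimulated with plate-bound anti-CD3 and with anti-CD28, in medium with IL-6 and with antibodies that block TGF-β, IL-4, IFN-γ and IL-2. Viable cells were sorted again on day 3 and their mRNA was sequenced, in 2 libraries per genotype. The sources used here do not say whether the libraries of a genotype came from separate mice or cultures, so the spread between them may be technical.

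The libraries held 16330802 to 18931090 counts, and 14330 genes had enough of them to be tested. A count of 0 allows up to 3 counts, at most 0.194 counts per 1000000 of the scaled library size (CPM) in any library, which covers counting error only. Map2k1 was read first as a check of the labels, with 182 and 187 CPM in the WT libraries and 98.0 and 105 CPM in the Mek1/2-tKO libraries. It was lower by -0.86 on the log2 scale (standard error 0.08). Map2k2 stood at 155 and 165 CPM in WT and at 172 and 182 CPM in Mek1/2-tKO and was not called (edgeR's adjusted p = 0.126), so that its total count did not show the deletion, and counts over a whole gene do not check the loss of single exons. A gene was called where edgeR's quasi-likelihood test gave an adjusted p under 0.05 and the fold change was at least 1.5, and by this rule 2768 genes (19.3% of those tested) were higher in Mek1/2-tKO and 2355 (16.4%) were lower. With 2 libraries in each genotype, the smallest two-sided p of an exact permutation test is 0.333, so every adjusted p rests on the spread modelled across all genes.

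Markers of other cell types differed between the genotypes in the same libraries. The counts of called markers below stand beside 19.3% of all tested genes called higher and 16.4% called lower. The summed level of 16 B-lineage markers was 1667 and 1637 CPM in WT against 7329 and 7325 CPM in Mek1/2-tKO, with 14 of the 16 called higher, 1 lower and 1 not passing, and with Ighm, the immunoglobulin mu chain, as the marker with the most CPM (683 and 3081 CPM on average). The gene called lower, Fcer2a, lay at the fold threshold (log2 fold change -0.59) and lost the call in 6 of 11 alternatives, among them leaving out WT replicate 1 (-0.56) or Mek1/2-tKO replicate 1 (-0.57). The 10 NK-cell markers, all of them called higher, summed to 36.9 and 37.7 CPM in WT, compared with 269 and 235 CPM in Mek1/2-tKO, and the granzyme gene Gzma led them. Of 7 gamma-delta T-cell markers, 6 were tested and all 6 were called higher, and the list summed to 8.11 and 4.77 CPM against 205 and 188 CPM, with Trdv4 at 0 in both WT libraries and Trdc with the most CPM. The myeloid and dendritic-cell list of 16 genes stood at 11.9 CPM in each WT library and at 50.7 and 41.8 CPM in the Mek1/2-tKO libraries, with 9 of its 9 tested genes called higher. Of these, Cd68 lost the call in 7 of 11 alternatives, and Cd14 (log2 fold change 1.36), Cebpa (2.41) and S100a9 (2.97) lost it without Mek1/2-tKO replicate 1. Cd14 also lost it without WT replicate 2 (1.65) and Cebpa without WT replicate 1 (2.12). Among its defining markers, Adgre1, Clec9a, Siglech, Mrc1 and S100a8 were at 0 in both WT libraries, and Zbtb46 was its gene with the most CPM. Cd8a and Cd8b1, both called higher, summed to 67.4 and 59.3 CPM in WT, compared with 238 and 214 CPM in Mek1/2-tKO. The 8 genes of the T-cell receptor complex and CD4 were present throughout, at 1694 and 1672 CPM in WT against 1320 and 1169 CPM in Mek1/2-tKO, with 4 of them called lower and 0 higher. Cd4 itself, the marker by which the cells had been sorted before culture, had 297 and 289 CPM in WT, compared with 18.8 and 25.1 CPM in Mek1/2-tKO (log2 fold change -3.73, standard error 0.12, edgeR's adjusted p = 2.43e-11), so the libraries labelled Mek1/2-tKO held little mRNA of the gene that gives the cells their label. The part of these cells in the chemokine values was not tested, and in such bulk samples fewer cells of a type and less RNA per cell cannot be told apart.

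The promoter sequences of Ccl1, Xcl1, Ccl3 and Cxcl10 are shown because these genes span the range from the widest to the narrowest genotype difference among the ligands and differ in the motifs they hold. Each run gives the 250 bases before the RefSeq start on the strand of the gene (GRCm38.p6), and capitals mark every match to a searched motif. The windows are chr11:82179813-82180062 (minus strand) for Ccl1, chr1:164935523-164935772 (minus) for Xcl1, chr11:83649379-83649628 (minus) for Ccl3 and chr5:92348890-92349139 (minus) for Cxcl10.
Ccl1: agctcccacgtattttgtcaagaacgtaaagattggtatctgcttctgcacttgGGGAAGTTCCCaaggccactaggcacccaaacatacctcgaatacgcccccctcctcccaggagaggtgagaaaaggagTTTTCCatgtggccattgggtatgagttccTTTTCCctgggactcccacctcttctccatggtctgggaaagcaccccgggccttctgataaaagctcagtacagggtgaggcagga
Xcl1: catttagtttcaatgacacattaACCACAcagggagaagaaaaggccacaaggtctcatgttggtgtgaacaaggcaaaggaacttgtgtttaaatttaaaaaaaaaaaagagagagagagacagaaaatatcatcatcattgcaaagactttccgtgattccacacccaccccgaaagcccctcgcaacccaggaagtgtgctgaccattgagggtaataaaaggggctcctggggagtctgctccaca
Ccl3: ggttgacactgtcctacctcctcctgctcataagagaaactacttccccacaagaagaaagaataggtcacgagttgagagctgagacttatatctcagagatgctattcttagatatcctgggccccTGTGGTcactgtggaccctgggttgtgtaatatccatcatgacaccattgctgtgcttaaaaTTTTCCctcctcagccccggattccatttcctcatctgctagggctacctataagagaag
Cxcl10: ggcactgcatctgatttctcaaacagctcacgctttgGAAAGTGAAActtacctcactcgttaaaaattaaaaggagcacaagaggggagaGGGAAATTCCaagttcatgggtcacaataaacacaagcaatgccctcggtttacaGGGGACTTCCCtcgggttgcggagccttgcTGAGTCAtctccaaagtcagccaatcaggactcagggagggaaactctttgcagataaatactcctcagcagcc

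Motifs were searched on both strands in the 6 ligand genes with an entry in the RefSeq promoter table, which also include Ccl17 and Ccl22. The kappa-B consensus, bound by NF-kappa-B, was found in Ccl1, where its matches on the 2 strands overlap, and in Cxcl10. It was also found in 7.25% of the 32851 promoter windows of the same length searched, which left out chromosome 18. The NFAT core GGAAAA was found in Ccl1 and Ccl3 (20.4% of windows), and the RUNX core TGTGGT in Xcl1 and Ccl3 (14% of windows). Cxcl10 alone of the 6 held the interferon-stimulated response element (GAAA, any 2 bases, then GAAA; 2.98% of windows) and the AP-1 site TGANTCA (6.75%), and Ccl17 alone held the interferon-gamma-activated site TTCNNNGAA (7.02%). The EGR site GCGNGGGCG (4.7% of windows) and the letters TATAAA (12.4%) matched in 0 of the 6, and Ccl22 held none of the motifs searched. Such a match describes letters in a window and does not show that a factor binds there.

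Ccl1 and Xcl1 had the widest genotype differences of the 9 ligands. Ccl1 encodes a ligand of CCR8 made by activated T cells, and Xcl1 encodes lymphotactin, which attracts the cross-presenting dendritic cells that carry XCR1. Ccl1 (ENSMUSG00000020702.13, chr11:82176657-82305690, minus strand) was counted 26 and 28 times in the WT libraries and 5913 and 5555 times in the Mek1/2-tKO libraries, or 1.33 and 1.45 CPM against 382 and 296 CPM. Its mean was 1.39 ± 0.0834 CPM in WT against 339 ± 60.9 CPM in Mek1/2-tKO (SD, n = 2 each, as for every mean below), a log2 fold change (log2FC) of 7.92 with a standard error (SE) of 0.17, or 242-fold. The WT libraries were almost equal, and neither Mek1/2-tKO library came near them. Xcl1 (ENSMUSG00000026573.7, chr1:164931644-164935527, minus strand) had 9.60 and 11.0 CPM in WT against 976 and 773 CPM in Mek1/2-tKO. Its means of 10.3 ± 1.03 and 875 ± 144 CPM differed by 6.40 on the log2 scale (SE 0.13), or 84.7-fold. Again the genotypes did not overlap, with Mek1/2-tKO above WT, as in 39.5% of tested genes. Of the exon bases of Xcl1, 18.7% are shared with Gm20743 on the opposite strand, and the strand setting of the counting is not given in the sources used here, so reads of that stretch could come from either.

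**Figure D1:**
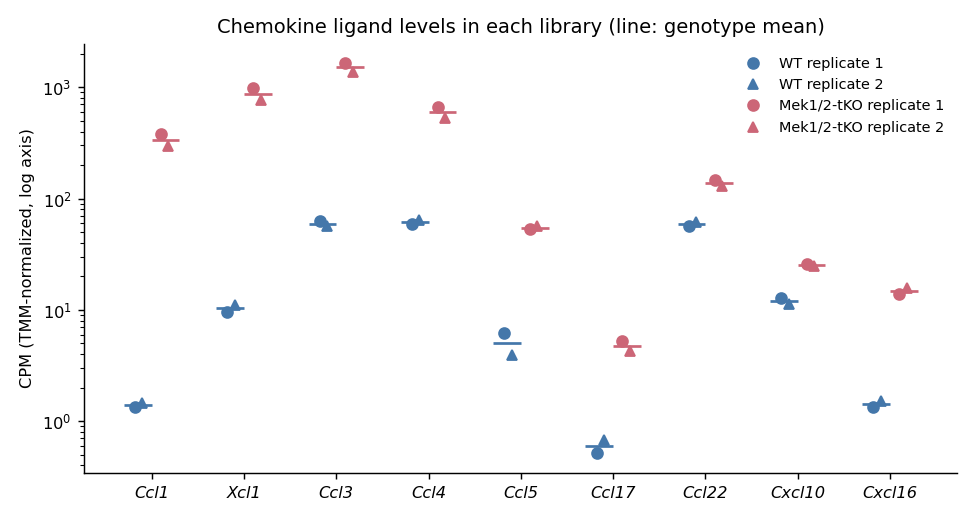
Level of each of the 9 ligand genes in each library, in CPM on a log axis, with WT and Mek1/2-tKO libraries as points and the mean of each genotype as a line. Both Mek1/2-tKO points lie above both WT points for each gene, an order that 39.5% of tested genes show. Ccl1 has 1.33 and 1.45 CPM in WT against 382 and 296 CPM, and Cxcl10 12.9 and 11.4 against 25.9 and 24.7 CPM.

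Ccl3, Ccl4 and Ccl5 encode inflammatory chemokines that activated T cells, NK cells and macrophages release. Ccl3 (ENSMUSG00000000982.5, chr11:83647844-83649355, minus strand), whose protein also binds CCR1, had 62.4 and 56.2 CPM in WT against 1635 and 1379 CPM in Mek1/2-tKO. The means were 59.3 ± 4.37 and 1507 ± 181 CPM, a log2FC of 4.67 (SE 0.11), or 25.4-fold. Both Mek1/2-tKO libraries were far above both WT libraries. Ccl4 (ENSMUSG00000018930.3, chr11:83662584-83664683, plus strand) had 59.4 and 64.7 CPM in the WT libraries and 664 and 532 CPM in the Mek1/2-tKO libraries. Its means of 62.1 ± 3.71 and 598 ± 93.6 CPM gave a log2FC of 3.27 (SE 0.11), or 9.64-fold. Per kilobase of exon, Ccl4 was the higher of the pair in both WT libraries and Ccl3 in both Mek1/2-tKO libraries. Ccl5 (ENSMUSG00000035042.2, chr11:83525778-83530518, minus strand), which binds CCR1 and CCR3 and is typical of effector and memory cells, stood at 6.21 and 3.94 CPM in WT and at 52.8 and 56.8 CPM in Mek1/2-tKO. The means were 5.08 ± 1.60 and 54.8 ± 2.86 CPM, and the log2FC was 3.43 (SE 0.18), or 10.8-fold. Its WT libraries were the most unequal of the 9 genes relative to their level, and both remained far under the Mek1/2-tKO libraries.

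Ccl17 and Ccl22 encode the ligands of CCR4, a receptor of Th2 and regulatory T cells, and are made chiefly by dendritic cells and macrophages. Ccl17 (ENSMUSG00000031780.2, chr8:94810453-94812036, plus strand) was counted rarely, with 10 and 13 in WT and 82 and 80 in Mek1/2-tKO. In CPM it had 0.513 and 0.674 against 5.30 and 4.26, and its log2FC of 2.99 carried an SE of 0.43, the widest of the 9. Ccl22 (ENSMUSG00000031779.3, chr8:94745590-94751699, plus strand) had 56.6 and 62.1 CPM in the WT libraries, and it stood at 148 and 130.2 CPM in the Mek1/2-tKO libraries. The means of 59.3 ± 3.87 and 139 ± 12.6 CPM were 2.34-fold apart (log2FC 1.23, SE 0.10). In neither gene did the genotypes overlap, with Mek1/2-tKO above WT, as in 39.5% of tested genes. The summed myeloid and dendritic-cell markers, at 11.9 CPM in each WT library and 50.7 and 41.8 CPM in Mek1/2-tKO, were higher in the same libraries, and their part in the levels of these ligands was not tested.

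Cxcl10 and Cxcl16 encode ligands of the receptors CXCR3 and CXCR6, found on Th1, CD8 and NK cells. Cxcl10 (ENSMUSG00000034855.13, chr5:92346638-92348889, minus strand), induced by interferons, had 12.9 and 11.4 CPM in WT against 25.9 and 24.7 CPM in Mek1/2-tKO. With means of 12.1 ± 1.08 and 25.3 ± 0.843 CPM and a log2FC of 1.06 (SE 0.15), or 2.09-fold, its difference was the smallest of the 9. Cxcl16 (ENSMUSG00000018920.11, chr11:70453983-70459984, minus strand), made as a transmembrane protein that proteases release, had 1.33 and 1.50 CPM in WT against 13.9 and 15.7 CPM in Mek1/2-tKO. Its means were 1.42 ± 0.120 and 14.8 ± 1.25 CPM, a log2FC of 3.38 (SE 0.25), or 10.4-fold, with 26 and 29 counts in WT and 215 and 294 in Mek1/2-tKO. On the opposite strand, Art3 shares 5.91% of the exon bases of Cxcl10 and Zmynd15 shares 18.3% of those of Cxcl16.

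All 9 of the 9 ligand genes passed the low-count filter and the call rule in the upward direction, where 19.3% of the tested genes did (35.8% in either direction), and nothing is read from that count because the same contrast chose them. In all 9 both Mek1/2-tKO libraries lay above both WT libraries, which 39.5% of tested genes showed, while 38.8% showed the opposite order. The median log2FC of the 9 was 3.38, against 0.02 over all tested genes. Between the Mek1/2-tKO libraries the ratio of replicate 1 to replicate 2 ran from 0.887 to 1.29 over the 9 genes, and replicate 1 was the higher in 7 of them, all but Ccl5 and Cxcl16. Between the WT libraries the same ratio ran from 0.761 to 1.57, and replicate 1 was the higher in 3. These spreads are small beside the genotype differences of every ligand but Cxcl10 and Ccl22, whose differences of 2.09-fold and 2.34-fold still exceeded them.

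Levels were compared between genes per kilobase of exon. In WT, Ccl4 (94.0 ± 5.62 CPM per kilobase) and Ccl3 (77.4 ± 5.71) stood first, followed by Ccl22 (25.5 ± 1.67) and Xcl1 (19.7 ± 1.96). Cxcl10 (5.38 ± 0.478) and Ccl5 (5.29 ± 1.67) came next and did not differ beyond their spread, and Ccl17 (1.16 ± 0.222), Ccl1 (0.588 ± 0.0352) and Cxcl16 (0.470 ± 0.0398) were lowest, with no other overlap between neighbours in the order. Among the Mek1/2-tKO libraries the order by level per kilobase was Ccl3 (1968 ± 236), Xcl1 (1672 ± 275), Ccl4 (906 ± 142) and Ccl1 (143 ± 25.7). Then came Ccl22 (59.8 ± 5.42), Ccl5 (57.1 ± 2.98), Cxcl10 (11.2 ± 0.374), Ccl17 (9.30 ± 1.43) and Cxcl16 (4.89 ± 0.414). In that order Ccl3 and Xcl1 overlapped between libraries, as did Ccl22 and Ccl5, and the other neighbours did not. Among all genes listed, the mean level per kilobase of Ccl3 moved from rank 940 in WT to rank 68 in Mek1/2-tKO, that of Xcl1 from 3224 to 83, that of Ccl4 from 784 to 129, and that of Ccl1 from 12630 to 610. The deposited length of Ccl1 includes a long non-coding transcript. With the length of the principal coding transcript instead, a choice made after the data were seen, Ccl1 came to 2.71 CPM per kilobase in WT and 659 in Mek1/2-tKO, which put it above Ccl17 in WT, and Ccl5 came to 103 in Mek1/2-tKO, above Ccl22.

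The make-up of the ligand pool differed as well. Together the 9 genes took 0.0217% and 0.0218% of the counts of the WT libraries and 0.370% and 0.319% of those of the Mek1/2-tKO libraries. As a share of their summed level per kilobase, Xcl1 made up 8.03% and 9.15% in WT and 35.1% and 34.0% in Mek1/2-tKO. Ccl4 went the other way, with 39.4% and 42.5% in WT and 18.9% and 18.5% in Mek1/2-tKO, and Ccl22 held 10.7% and 11.6% against 1.20% and 1.29%. Ccl3 held 35.7% and 31.8% in WT and 40.2% and 41.4% in Mek1/2-tKO. The ratio of Ccl3 to Ccl4 per kilobase was 0.905 and 0.749 in WT and 2.12 and 2.23 in Mek1/2-tKO, and that of Ccl22 to Ccl17 was 24.4 and 20.4 in WT and 6.18 and 6.75 in Mek1/2-tKO. For Xcl1 over Ccl1 the ratio was 32.6 and 34.5 in WT and 11.6 and 11.8 in Mek1/2-tKO, with the deposited lengths. With the principal transcript lengths, the share of Ccl1 in Mek1/2-tKO was 12.5% and 11.8%, in place of 3.03% and 2.87%. A smaller share here goes with a higher level, since each of the 9 genes had more CPM in Mek1/2-tKO.

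**Figure D2:**
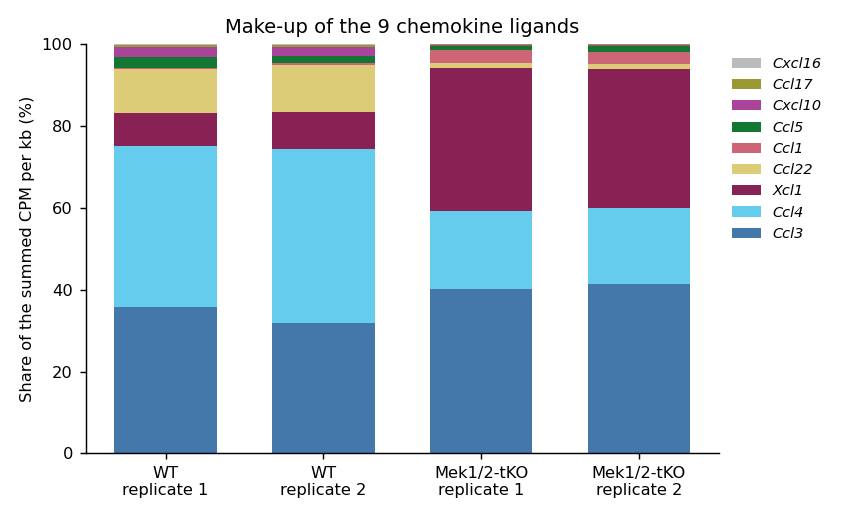
Share of each of the 9 ligand genes in their summed level (CPM per kilobase of exon), in percent, with 1 stacked bar for each library. Xcl1 fills 8.03% and 9.15% of the WT bars and 35.1% and 34.0% of the Mek1/2-tKO bars, while Ccl4 fills 39.4% and 42.5% and then 18.9% and 18.5%.

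Several of the ligand genes lie in clusters, and the clusters hold other chemokine genes. Ccl5, Ccl9, Ccl6, Ccl3 and Ccl4 span 138.9 kb of chromosome 11 (chr11:83525778-83664683). Ccl9 and Ccl6, rodent chemokines made mainly by myeloid cells, were both called higher. Ccl9 had 3.64 and 2.39 CPM in WT against 152.5 and 139 CPM in Mek1/2-tKO, a log2FC of 5.59 (SE 0.16, edgeR's quasi-likelihood adjusted p = 7.74e-12). Ccl6 was at 0 in both WT libraries and at 3.42 and 3.04 CPM in Mek1/2-tKO, at least 20.9-fold higher against a floor of 3 counts per library (edgeR's adjusted p = 1.29e-05). Next to Ccl4, at 39.31 kb, Wfdc17 rose from 0.309 to 13.9 CPM on average (log2FC 5.45, SE 0.45, edgeR's adjusted p = 3.36e-07). On the far side of Ccl5, Taf15, which encodes an RNA-binding protein, lay at 19.04 kb and had a log2FC of -0.42, under the fold threshold.

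Ccl22 and Ccl17 lie on either side of Cx3cl1, the gene of fractalkine, within 66.45 kb of chromosome 8. Cx3cl1 was called higher at low counts, with 0.308 and 0.156 CPM in WT against 1.23 and 0.905 CPM in Mek1/2-tKO (edgeR's adjusted p = 0.0238). It lost the call when any 1 of the 4 libraries was left out, at log2FC values of 1.76 without WT replicate 2, 1.93 without Mek1/2-tKO replicate 1, 2.36 without Mek1/2-tKO replicate 2 and 2.71 without WT replicate 1, and likewise with DESeq2 (2.20) and with no filter (2.15). Beyond the ligands, Ciapin1 at 7.768 kb from Ccl17 (log2FC 0.12, edgeR's adjusted p = 0.251) and Arl2bp at 71.17 kb from Ccl22 (0.18, edgeR's adjusted p = 0.103) did not pass. Cxcl10 lies between Cxcl9 and Cxcl11, the other ligands of CXCR3, within 44.14 kb of chromosome 5. Cxcl9 rose from 2.51 and 2.75 CPM to 11.1 and 12.5 CPM, a log2FC of 2.16 (SE 0.24, edgeR's adjusted p = 4.93e-06), while Cxcl11 had a log2FC of 0.72 (SE 0.74) and did not pass (edgeR's adjusted p = 0.428). Beside Cxcl16, the Mediator gene Med11 at 0.256 kb had a log2FC of 0.50, under the fold threshold. On the other side, at 45.26 kb, Tm4sf5 fell from 3.30 to 0.732 CPM on average (log2FC -2.14, SE 0.49, edgeR's adjusted p = 0.00207). No tested gene lay beside Ccl1 or Xcl1 within 100 kb of either end. Genes that overlap a ligand gene were left out of this search.

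The chemokine ligand genes outside the 9 numbered 31 in the files, of which 12 were at 0 in every library, 7 were counted but too low to test, and 12 were tested. Of these 12, 9 were called higher, where 19.3% of tested genes were, 0 were called lower and 3 did not pass, with a median log2FC of 2.16. The median was also 2.16 with the 2 genes at 0 in WT set to their bounds. Counts were low in WT, since 8 of the 12 had under 10 counts in some WT library, and of the 4 with at least 10 counts in every library 2 were called higher. The filter passes a gene that is high in 1 genotype only, so the 12 are not a sample of all ligands. Cxcl1, Cxcl2 and Cxcl3, whose products attract neutrophils, were among those called higher. Cxcl2 had 0.770 and 0.207 CPM in WT against 3.62 and 6.44 CPM in Mek1/2-tKO (log2FC 3.35, SE 0.53, edgeR's adjusted p = 0.000128). Cxcl1 was at 0 in both WT libraries and at 1.29 and 1.33 CPM in Mek1/2-tKO, at least 8.48-fold higher. Cxcl3 was called at a log2FC of 2.82 (SE 0.86, edgeR's adjusted p = 0.0128) but not without WT replicate 2 (1.84) or without Mek1/2-tKO replicate 2 (2.57).

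Pf4, the platelet chemokine, and Ccl20, the ligand of CCR6, were called higher by narrower margins. Pf4 had 2.00 and 0.415 CPM in WT against 3.81 and 4.05 CPM in Mek1/2-tKO (edgeR's adjusted p = 0.015), and its log2FC of 1.69 became 0.97 and lost the call without WT replicate 2. For Ccl20, 0.205 and 0.519 CPM stood against 2.20 and 0.639 CPM (log2FC 1.93, edgeR's adjusted p = 0.0459). Its call was lost with DESeq2 (1.96), with a replicate block (1.78), without Mek1/2-tKO replicate 1 (0.81) and without WT replicate 1 (1.42), so the call rested on both of these libraries. Ccl25 and Ccl27a, epithelial chemokines of gut and skin, did not pass (log2FC values of -0.15 and -0.09, SE 0.40 and 0.42). Near Ccl1, the cluster of Ccl2, Ccl7, Ccl11, Ccl12 and Ccl8 was too low to test. Ccl2, which attracts monocytes, had 0 counts in both WT libraries and 24 and 5 in Mek1/2-tKO, and Ccl7 had 0 in WT and 8 and 6 in Mek1/2-tKO. With no filter both were called higher (edgeR's adjusted p = 0.000522 for Ccl2 and 0.0477 for Ccl7), and Ccl2 was also tested and called higher without WT replicate 1, without WT replicate 2 and without Mek1/2-tKO replicate 2. Cxcl13, the follicular chemokine that draws CXCR5 cells, was counted 10 and 18 times in WT and 2 and 1 times in Mek1/2-tKO, and was likewise not tested.

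**Figure D3:**
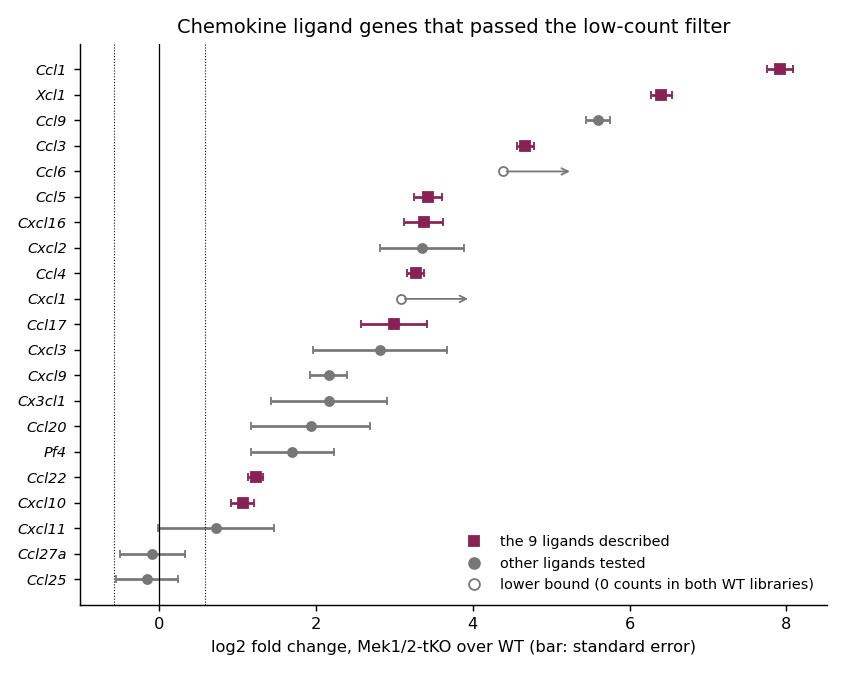
Log2 fold change of Mek1/2-tKO over WT for the chemokine ligand genes that passed the low-count filter, with bars of 1 SE, squares for the 9 ligands described and circles for the 12 others. Open circles with arrows are lower bounds for the 2 genes at 0 in both WT libraries, and dotted lines mark a 1.5-fold difference; Ccl1 lies farthest right at 7.92, and Ccl25 and Ccl27a lie left of 0.

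The receptors of the 9 ligands did not move in one direction. Of 8 receptor genes 6 were tested, and 4 were called higher and 2 lower, where 19.3% and 16.4% of tested genes were. Ccr8, the receptor of Ccl1, had 73.1 and 66.1 CPM in WT against 6.01 and 7.14 CPM in Mek1/2-tKO. It fell from 69.6 ± 4.95 to 6.57 ± 0.798 CPM, a log2FC of -3.40 (SE 0.14, edgeR's quasi-likelihood adjusted p = 3.1e-10). Ccr4, which binds Ccl17 and Ccl22, had 77.8 and 69.1 CPM in WT against 22.2 and 25.2 CPM in Mek1/2-tKO, a log2FC of -1.63 (SE 0.12, edgeR's adjusted p = 7.98e-08). For both of these receptors the 4 libraries fell into separate ranges by genotype, with Mek1/2-tKO lower, as 38.8% of tested genes did. The ligands of Ccr8 and Ccr4 were higher, but the same contrast chose the ligands, so nothing is read from the opposite directions. The 4 receptors called higher went the same way as their ligands.

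Cxcr3 and Cxcr6, typical of Th1, CD8 and NK cells, and Ccr1 were among the receptors that rose. Cxcr3 rose from 8.05 ± 0.936 to 45.6 ± 0.254 CPM (log2FC 2.499, SE 0.14, edgeR's adjusted p = 7.79e-09). Cxcr6, the receptor of Cxcl16, had 1.44 and 0.985 CPM in WT against 12.9 and 14.4 CPM in Mek1/2-tKO, a log2FC of 3.48 (SE 0.27, edgeR's adjusted p = 1.96e-07). Ccr1, a receptor of Ccl3 and Ccl5 common on myeloid cells, was low in WT, at 0.205 and 0.104 CPM in WT against 3.88 and 2.24 CPM in Mek1/2-tKO (log2FC 4.24, SE 0.65, edgeR's adjusted p = 0.000101). Xcr1, the receptor of Xcl1, was too low to test, with 4 and 2 counts in WT and 16 and 2 in Mek1/2-tKO, as was Ccr3, with 0 and 6 counts in WT and 2 and 0 in Mek1/2-tKO. The NK-cell markers (36.9 and 37.7 against 269 and 235 CPM) and the CD8 markers (67.4 and 59.3 against 238 and 214 CPM) were higher in the same libraries as these receptors, and their part in the receptor levels was not tested.

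**Figure D4:**
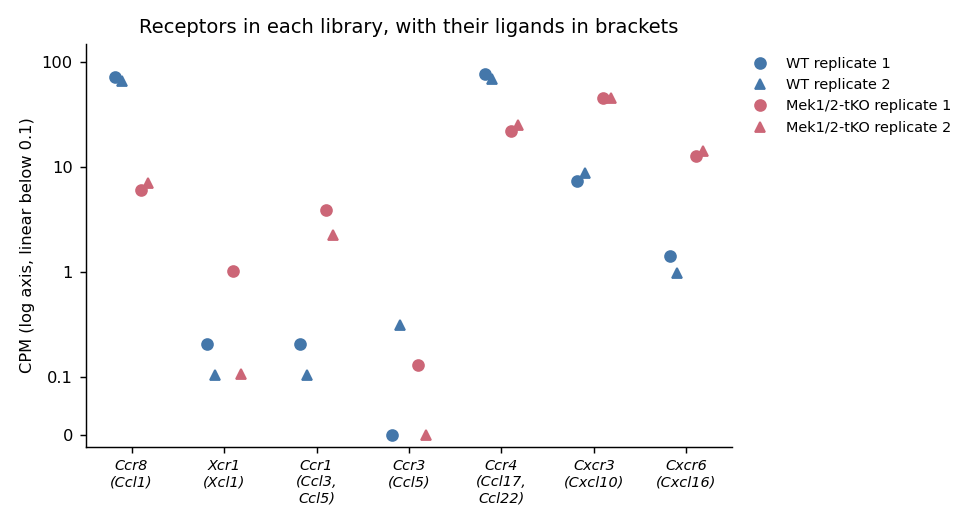
Level of 7 receptor genes of the 9 ligands in each library, in CPM on a log axis that is linear near 0, with circles for replicate 1, triangles for replicate 2 and the ligands in brackets. Ccr8 and Ccr4 lie lower in Mek1/2-tKO (6.01 and 7.14 against 73.1 and 66.1 CPM for Ccr8), and Ccr1, Cxcr3 and Cxcr6 lie higher, while Xcr1 and Ccr3 were too low to test.

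Of 7 genes that store, cut or clear chemokines, 5 were tested, with 1 called higher, 1 lower and 3 not passing, where 19.3% and 16.4% of all tested genes were called in these directions. Srgn, the proteoglycan serglycin that holds basic proteins in secretory granules, rose from 331 ± 12.3 to 599 ± 88.4 CPM (log2FC 0.86, SE 0.09, edgeR's adjusted p = 4.73e-06). Adam10, the protease that sheds Cxcl16 from the cell surface, fell from 130.1 ± 3.22 to 80.9 ± 3.95 CPM (-0.69, SE 0.09, edgeR's adjusted p = 1.78e-05). The peptidase gene Dpp4, which trims several chemokines, had a log2FC of 0.51, the protease gene Adam17 one of -0.35 and the atypical receptor gene Ccrl2 one of 0.33, none of which reached both thresholds. Both called genes lost the call at a fold change of at least 2.

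Among 20 genes of transcription factors and an mRNA-decay factor known to act on chemokine genes, all 20 were tested, with 5 called higher, 7 lower and 8 not passing (background shares of 19.3% and 16.4%), and with a median log2FC of -0.33. Those called higher included the AP-1 gene Jun (log2FC 1.71), the T-box gene Eomes (1.73), Zfp36, whose product destabilizes cytokine mRNAs (1.23), and the interferon-response gene Irf1 (0.99), with edgeR's adjusted p from 1.86e-08 to 1.27e-06 for these 4. Those called lower were Gata3, the Th2 factor (-2.10), Nfatc2 (-1.72), Irf4 (-1.51), Runx3 (-1.16), Nfkb1 (-0.97), the ERK-dependent early gene Egr1 (-0.94) and Fos (-0.89). The call of Fos (edgeR's adjusted p = 0.0187) was lost without WT replicate 1 and without Mek1/2-tKO replicate 2. The NF-kappa-B genes Rela (-0.30) and Rel (-0.32), the NFAT gene Nfatc1 (-0.38) and the Th1 factor gene Tbx21 (-0.23) had log2FC values under the fold threshold.

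The genes with the profile most like that of each ligand were found by the root-mean-square difference of their log2 CPM over the 4 libraries, each profile centred on its own mean. The 9 ligands were left out of this search, so a ligand could not be matched to another ligand. With 2 libraries per genotype this measure mostly matches genes of a like fold change. Outside the 9 ligands Ccl1 had no close match, its nearest genes there being Fcrla at 0.852, Ifit3 at 0.931 and Tcrg-C4 at 1.10. The same genes were nearest to Xcl1, at 0.174, 0.252 and 0.412 in that order. For Ccl3 the nearest were Ifitm1 (0.0987), Jchain (0.102) and Iglv3 (0.110), and for Ccl4 Ighv9-3 (0.0237), March1 (0.0241) and Iglc1 (0.0533). Ccl5 was nearest to Cxcr6 (0.0581), and Ccl17 to the immunoglobulin segments Igkv8-28 (0.0709), Igkv4-59 and Igkv4-57-1 (0.0790). Ccl22 lay nearest to H3f3a (0.017), Cxcl10 to Hmgn3 (0.00532) and Cxcl16 to Shroom3 (0.0293). Immunoglobulin genes, products of B cells and plasma cells, were among the nearest to Ccl3, Ccl4, Ccl17 and Cxcl16, and the summed B-lineage markers were higher in the same libraries, with 1667 and 1637 CPM in WT against 7329 and 7325 CPM, and their part was not tested.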

How the data were processed

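RNA was measured in 2 WT and 2 Mek1/2-tKO libraries of naïve CD4+ T cells polarized for 3 days. The authors trimmed the reads (Trimmomatic 0.36), mapped them to GRCm38, counted those with a unique position for each gene (featureCounts of Subread 1.5.1, per the submitters' processing notes) and deposited raw counts per gene and library, with no normalization. The library kit keeps the strand, but the strand setting of the counting and the annotation release are not given in the sources used here. Symbols were matched to 54723 of 54752 identifiers.

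The counts were filtered (filterByExpr), scaled by TMM and tested with edgeR 4.0.16 in R 4.3.3 (robust quasi-likelihood fit, Benjamini-Hochberg adjustment over 14330 genes), and CPM used the same scaling. The call rule needed a fold change of 1.5 or more and an adjusted p under 0.05. The calculation was tested on counts simulated with a common dispersion, with differences only in genes well counted in WT. That setting does not cover genes at low counts or the unequal noise of the replicates. Replicates differed by more than sampling noise (chi-square per gene 4.17 in WT and 10.9 in Mek1/2-tKO).

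The 9 ligands, the other gene lists and the rule for named genes were chosen with earlier results of these data known. The rule took the 9 ligands, their receptors, called genes of the lists, the most abundant marker of each cell type and those at 0. It also took Map2k1, Map2k2 and tested genes next to a ligand within 100 kb. For each ligand it took the 3 most alike tested genes outside the 9, of an average log2 CPM of at least 1. Cxcl13, Cxcl5, Ccl2 and Ccl7 were named after their values were seen. So were the markers with unstable calls and the list genes that did not pass. The alternatives tried were a likelihood-ratio test, DESeq2 1.42.0, no filter, scaling by library size alone, a minimum of 10 counts per library, other thresholds, a replicate block and leaving out each library. Some genes of the lists are counted in them but are not reported here by name.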

Additional observations from a re-analysis of the deposited data

How the results depend on the processing

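The log2 fold changes of the 9 ligands kept their direction in every alternative run. Leaving out 1 library gave 7.72 to 8.08 for Ccl1, 6.23 to 6.56 for Xcl1, 3.14 to 3.79 for Ccl5 and 0.97 to 1.15 for Cxcl10. A fold change of at least 2 left 1725 genes called higher and 1040 lower over all genes, 0 higher and 0 lower of the chemokine-handling genes, and 3 higher and 4 lower of the regulators. Of the other ligands, 2 were called higher with at least 10 counts in every library, since fewer were then tested, and 5 at an adjusted p under 0.01. DESeq2 called 7 of the other ligands higher. With no filter 11 were called higher, adding Ccl2, Ccl7 and Cxcl5 and losing Cx3cl1. Cxcl13 was called lower with no filter and without WT replicate 1, so that the number called lower among the other ligands was 1 with no filter and 0 to 1 when leaving out a library. Libraries of the same replicate number did not deviate together over all genes (correlation of -0.0262). Such a value cannot exclude a pairing that acts on part of the genes. In the main fit the numbers were used as sample names only, and a fit with a replicate block gave 2652 genes higher and 2300 lower. With 2 libraries per genotype the spread of a single gene is poorly known, and ligands under about 10 counts in WT are the least certain.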
